A study of Mus musculus with 17 samples.

Results

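Hematopoietic stem cells (HSCs) sorted from mouse fetal liver were compared with HSCs sorted from adult mice 21 days after injection of pIpC. This double-stranded RNA mimic triggers an interferon response and serves to induce Mx1-driven Cre in many conditional knockouts. Members were chosen by the sample titles alone: 3 arrays of E15.5 fetal liver and 4 control arrays at day 21, which make 7 of the 17 arrays of the series. Fetal HSCs were lin-, Mac-1 low, Sca1+, cKit+, CD150+ and CD48- cells, and the labels give them no genotype. Adult control HSCs were lin-, Sca1+, cKit+, CD150+ and CD48- cells labelled wild type. Control HSCs at day 7 after pIpC (n = 3), also labelled wild type, give values beside the main comparison. The other 7 arrays, titled C/EBPa KO at day 7 (n = 3) and day 21 (n = 4), entered only the estimate of the spread. Titles call them C/EBPa KO, whereas their genotype field and the design text name a Pu.1 knock-in (PU.1ki/ki), so the labels conflict for those arrays. Strain, sex and adult age are not given in the labels, nor is it stated how many animals an array stands for. The p-values therefore reflect a spread between samples that may be technical. That spread was pooled over every group of the series, so it is not that of the 7 arrays alone. Stage, tissue, the Mac-1 low gate and pIpC all differ between both groups and cannot be told apart.

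Fetal liver is the main site of HSC expansion before birth, where most HSCs divide, while adult HSCs of the bone marrow are largely quiescent. The fetal programme is known for the RNA-binding proteins Lin28b and Igf2bp, the chromatin protein Hmga2 and the imprinted growth genes around Igf2. C/EBPa, the transcription factor of the series title, is a regulator of myeloid differentiation, and the title concerns how adult HSC quiescence is acquired and maintained. The comparison of fetal with adult control HSCs addresses which genes accompany that difference in stage.

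Each array gives 1 intensity per probe set, a group of short probes for 1 transcript, and log2 of the deposited intensity was analysed. Of 18193 genes named through the platform annotation, 1409 lay at the lowest deposited intensity of 16 (4 on the log2 scale, called the floor) in the whole series. The remaining 16784 were tested. On the 7 arrays 21.99% to 25.2% of probe sets were at the floor and the median intensity was 39.4 to 47.7. Control array 3 stood at the low end, with 25.2% at the floor, the lowest median and the lowest 3' to 5' control ratio (log2 −0.4, against −0.05 to 0.52 on the other 6 arrays). Correlations over probe sets were 0.867 to 0.892 within fetal liver and 0.827 to 0.88 within the day 21 controls, and no arrays held identical values. Below, a gene was called where limma's adjusted p over all genes tested was under 0.05, differences are fetal liver minus control day 21 on the log2 scale, and array values are in replicate order.

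Genes linked to the sex chromosomes set the day 7 controls apart from the 7 arrays compared. Xist, the RNA that silences an X chromosome, was 12.61 to 12.75 in fetal liver, 12.54 to 12.9 in the day 21 controls and 4.92 to 5.62 in the day 7 controls. The Y-linked gene Eif2s3y was at the floor on all fetal and day 21 control arrays and 8.4 to 9.02 in the day 7 controls. Kdm5d, also Y-linked, was 4 to 4.41 in fetal liver, 4 to 4.26 at day 21 and 8.47 to 9.32 at day 7. A value against day 7 therefore differs in these genes as well as in the days since pIpC, and the part of either in other genes was not tested.

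No gene of the sort gate passed the test, and several spread widely over the arrays. Kit, the stem cell factor receptor used in the sort, was 9.15, 9.1 and 9.23 on the fetal arrays and 9.82, 9.49, 9.19 and 9.18 on the control arrays (log2 difference −0.26, SE 0.2, adjusted p = 0.599). Slamf1, which encodes CD150, was 9.18, 5.24 and 7.13 on the fetal arrays and 9.44, 7.29, 8.25 and 10.04 on the control arrays (log2 difference −1.57, SE 0.87, adjusted p = 0.423), and the lowest value was on fetal array 2. Cd48, which the gate excludes, was 7.71, 6.71 and 6.64 on the fetal arrays and 4.69, 4.21, 9.36 and 6.57 on the control arrays, with 1 control array well above the others (log2 difference 0.81, SE 0.97, adjusted p = 0.772). Itgam, which encodes a chain of Mac-1, was 6.66, 5.22 and 4 on the fetal arrays and at the floor on the 4 control arrays (log2 difference 1.29, SE 0.4, adjusted p = 0.12). Ly6a, the gene for Sca1, had no probe set of its own in the annotation and is not analysed here. Of the 11 sort gate genes tested, limma called 0 (2 had an unadjusted p under 0.05, and an ordinary linear model also called 0), and their median difference was 0.02, the same as the 0.02 over all genes. Among defining HSC genes, Procr (the protein C receptor EPCR) was 9.34, 9.29 and 10.18 on the fetal arrays and 10.16, 10, 8.79 and 10 on the control arrays (log2 difference −0.13, SE 0.44, adjusted p = 0.948). Mecom, a zinc-finger factor needed for HSC maintenance, was 10.49, 10.02 and 10.53 on the fetal arrays and 10.25, 9.9, 8.41 and 8.83 on the control arrays (log2 difference 1, SE 0.39, adjusted p = 0.223). Hlf, a leucine-zipper factor of HSCs, was 11.14, 10.45 and 11.07 on the fetal arrays and 11.46, 10.74, 11.31 and 10.93 on the control arrays (log2 difference −0.22, SE 0.31, adjusted p = 0.813). All 3 were bright in both groups.

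Limma called 455 genes, 2.71% of those tested: 237 were higher in fetal liver (1.41%) and 218 were lower (1.3%), while 2621 had an unadjusted p under 0.05. Over all genes 53.7% were above 0. Called genes differed by a median of 2.09 in absolute value, and the smallest called difference was 0.49. Of the called genes, 140 were over 4-fold higher and 106 over 4-fold lower, and 27 and 15 passed 16-fold. The groups did not overlap for 445 of the 455, against 11.1% of all genes tested. Against the day 7 controls 182 genes were higher (1.08%) and 220 lower (1.31%) in fetal liver, a comparison that shares the fetal arrays, and the controls of both days differed in 5 genes (0.0298%). Fitting the 7 arrays alone, with 5 residual degrees of freedom in place of 12, left 74 called genes, 66 of which were among the 455. The groups pooled in the main fit were not equally spread. Over genes, the median standard deviation was 0.38 in fetal liver and 0.46 in the day 21 controls. It was 0.36 in the day 7 controls, and 0.3 (day 7) and 0.35 (day 21) in the arrays titled C/EBPa KO. Of 123 called genes named by the rule set out below, 77 had other probe sets, 36 had another called in the same direction and 0 in the opposite one. At least 1 other probe set had the opposite sign for 13 of them, H2-Q5, Pfn2, Smc2, Pes1, Ogdh, Dnaja1, Nfkbiz, H2-D1, Acvr1b, Il10rb, Pcgf2, Clec4g and Nes. Leaving out 1 array gave 308 (without fetal array 2) to 516 genes (without fetal array 1). Of the same 123 genes, 85 kept their call against the day 7 controls, and the text does not give that value for each gene. Called genes named beyond the rule, listed with the processing, are in none of these counts of the 123.

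**Figure D1:**
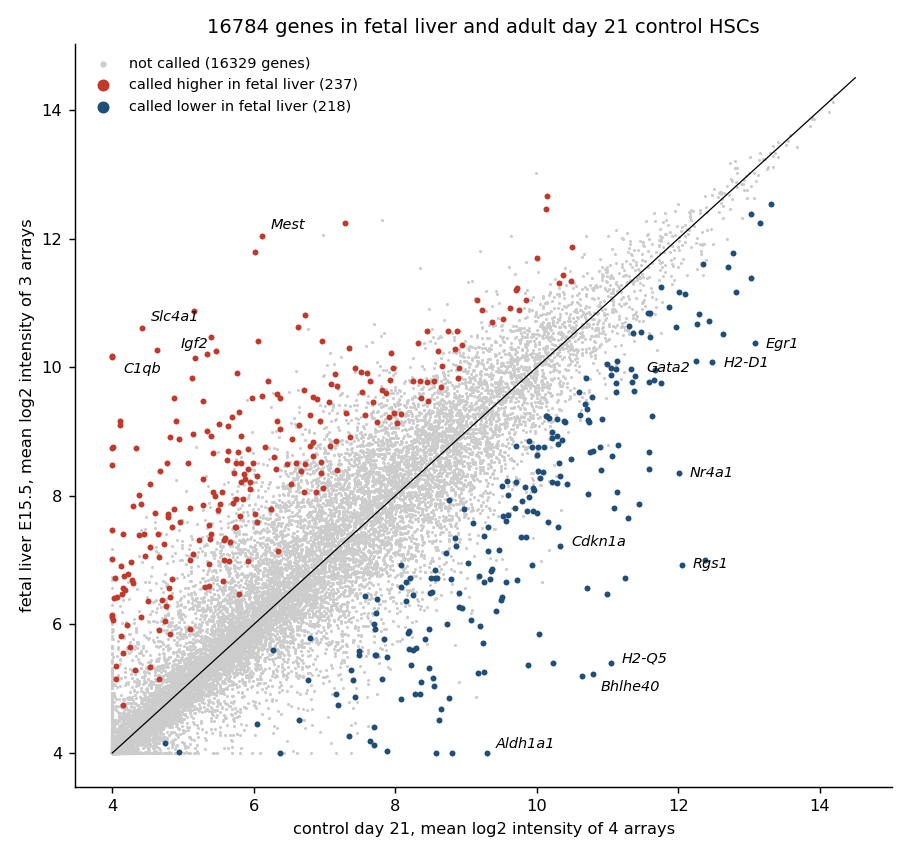
Mean log2 intensity of the 4 day 21 control arrays (horizontal axis) against that of the 3 fetal liver arrays (vertical axis), 1 point for each of 16784 genes. Red points are the 237 genes called higher in fetal liver and blue points the 218 called lower. Several red points lie along the left edge, where the controls were at or near the floor, and the lower called genes include bright genes such as Egr1, Rgs1 and H2-D1.

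The 49 gene lists used here were built from textbook pathways and cell types, with 1296 of 1437 entries tested. They were chosen with earlier results of these data known, so a list's share beside that of all genes is no independent test. Every count of called members below is to be read beside all genes tested, of which 1.41% were called higher and 1.3% lower. In the shorter lists a single called gene already exceeds either share. The largest positive medians were those of the fetal HSC list (2.6), endothelial markers (2.04), heme synthesis (1.83) and erythroid markers (1.6). The most negative were those of the immediate-early list (−1.58), the NF-kB feedback list (−1.2), MAPK and cytokine feedback (−0.93) and the quiescence list (−0.9). Centring each array on its median moved the median over all genes from 0.02 to −0.05, and quantile normalization moved it to −0.02, so no list with a median beyond 0.1 changed direction.

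**Figure D2:**
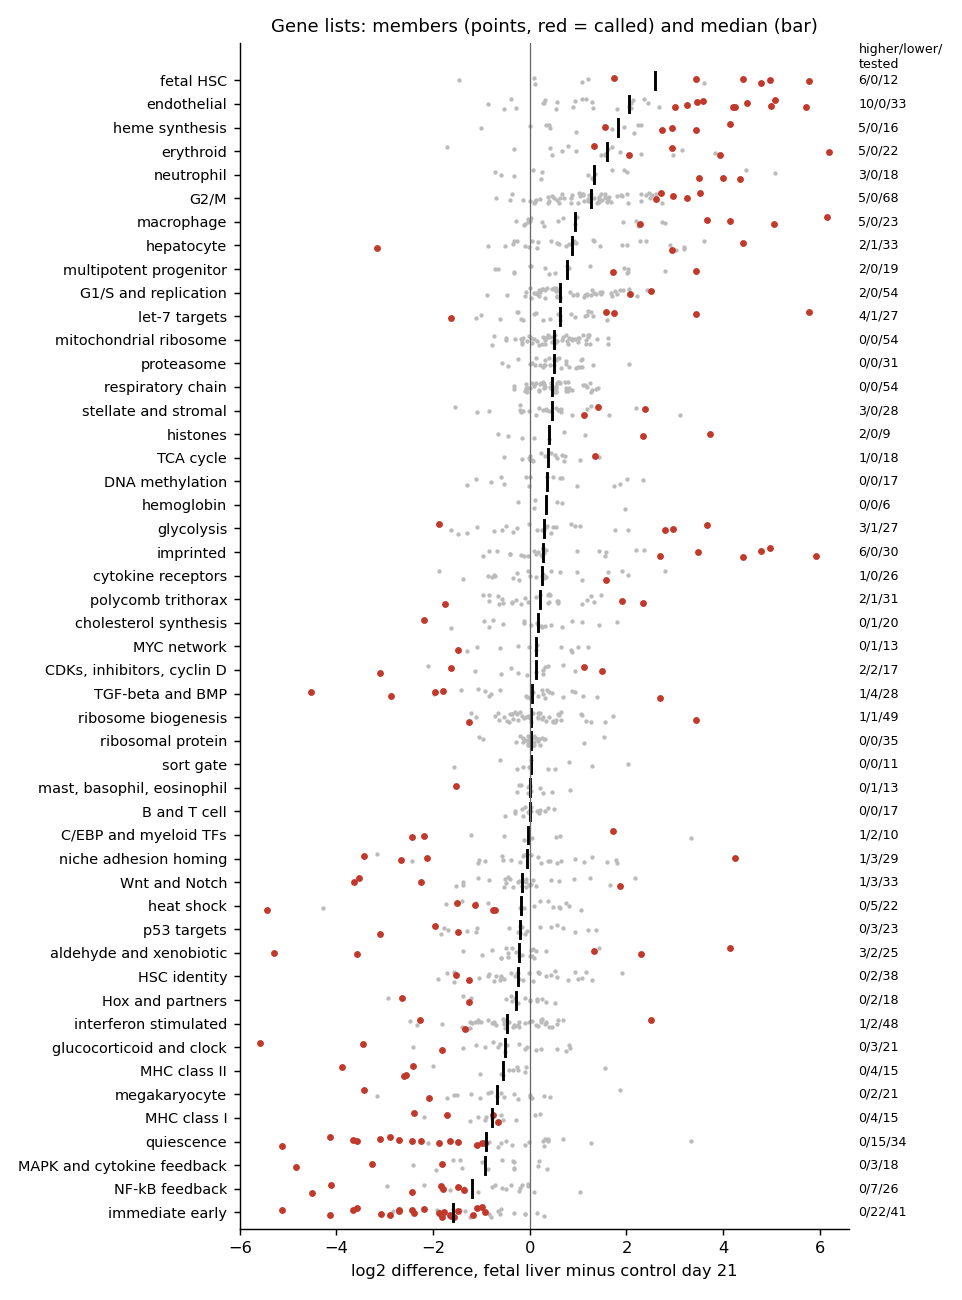
Log2 difference of every tested member of 49 gene lists (points, red where called), with the median as a black bar and, at the right, the numbers called higher, called lower and tested. The endothelial, erythroid and heme synthesis lists lie mostly to the right of 0, and of the 41 immediate-early genes 39 lie to its left, 22 of them called.

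Several lists of markers of other liver and blood cells had members called higher in fetal liver, unevenly over its 3 arrays. Of 33 endothelial markers 10 were called, all of them higher, with a median of 2.04 and 29 of 33 above 0. Their mean log2 intensity was 6.98, 8.56 and 9.05 on fetal arrays 1, 2 and 3 and 6.11 to 6.29 in the controls, and their summed intensity was 8758 to 30433 against 5236 to 6405. Cdh5, the adhesion protein VE-cadherin that defines endothelial cells, was 6.09, 9.78 and 11.61 on the fetal arrays and 4.96, 4.65, 5.26 and 4.75 on the control arrays (log2 difference 4.25, SE 0.84, adjusted p = 0.0156), and its call was lost without fetal array 2 (adjusted p = 0.0666). Stab2, a hyaluronan scavenger receptor of liver sinusoids, was 8.15, 10.03 and 11.18 on the fetal arrays and 7.97, 5.29, 5.44 and 6.1 on the control arrays (log2 difference 3.59, SE 0.75, adjusted p = 0.0222), and its call was lost without fetal array 2 or 3 or control array 2 or 3 (adjusted p 0.0513 to 0.0917). Stab1, a related scavenger receptor, was 7.01, 7.81 and 8.79 on the fetal arrays and 4.56, 4.26, 4.16 and 4.65 on the control arrays (log2 difference 3.46, SE 0.34, adjusted p = 6.7e-05). Clec4g, a lectin of liver sinusoids, differed by 3.01 (adjusted p = 7.8e-05). Kdr, the receptor VEGFR2, did not pass the test at 5.77, 8.84 and 8.09 on the fetal arrays and 5.28, 4.92, 5.36 and 5.22 on the control arrays (log2 difference 2.37, SE 0.66, adjusted p = 0.0788). The transcription factor gene Sox18 was 7.44, 10.86 and 10.13 on the fetal arrays and 5.5, 4.73, 4.69 and 6.18 on the control arrays (log2 difference 4.2, SE 0.75, adjusted p = 0.00801), and Gpr182, a receptor of sinusoidal endothelium, was 5.82, 9.64 and 9.99 on the fetal arrays and at the floor on the 4 control arrays (log2 difference 4.48, SE 0.69, adjusted p = 0.00291), a lower bound since the controls were at the floor. Flt4, the receptor VEGFR3, was 5.79, 10.16 and 10.05 on the fetal arrays and 5.44, 5.36, 5.56 and 5.31 on the control arrays (log2 difference 3.25, SE 0.75, adjusted p = 0.0343), and its call was lost without fetal array 2 or 3 or control array 1, 2, 3 or 4 (adjusted p 0.0596 to 0.138). The count of endothelial genes called was 16 without fetal array 1, the array on which they were lowest, and 7 to 9 without any other array.

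Hepatocyte and stellate markers were also lowest in fetal liver on array 1. Hepatocyte markers had mean log2 intensities of 6.05, 7.58 and 7.34 on fetal arrays 1, 2 and 3 and of 5.57 to 6.25 in the controls, with a median difference of 0.88, 25 of 33 above 0 and a summed intensity of 18622 to 27366 against 5700 to 10808. Albumin (Alb) was 6.94, 11.14 and 11.56 on the fetal arrays and 5.51, 5.93, 8.34 and 8.18 on the control arrays (log2 difference 2.89, SE 0.93, adjusted p = 0.132), and alpha-fetoprotein (Afp) was 5.53, 12.07 and 10.88 on the fetal arrays and 5.28, 5.75, 5.31 and 7.25 on the control arrays (log2 difference 3.6, SE 1.21, adjusted p = 0.15). Both were low on fetal array 1 and high on the other 2 fetal arrays. Apoa1, the main protein of high-density lipoprotein, was the one called higher that the fetal HSC list does not also hold, at 8.41, 10.34 and 10.21 on the fetal arrays and 6.55, 6.48, 6.87 and 6.97 on the control arrays (log2 difference 2.94, SE 0.45, adjusted p = 0.00299). Krt18, a keratin, was called lower, at 9.21, 7.46 and 8.59 on the fetal arrays and 12.04, 11.67, 11.74 and 10.86 on the control arrays (log2 difference −3.16, SE 0.39, adjusted p = 0.00061). The list had 3 called genes, 14 without fetal array 1, 2 without fetal array 2 or 3 and 5 without control array 4. Of 28 stellate and stromal markers 3 were called higher, with a median of 0.47: Postn (periostin, 2.37, adjusted p = 0.00317), Nes (nestin, 1.12, 0.00774) and Col1a1 (a collagen chain, 1.42, 0.0453), the last of them lost without fetal array 2 or 3 or control array 1, 2, 3 or 4 (adjusted p 0.0729 to 0.141). Without fetal array 1 there were 8. Col3a1 (1.63, adjusted p = 0.147) and Dcn (2.2, 0.0777) were not called.

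Macrophage markers were higher on all 3 fetal arrays, with list means of 7.6, 6.72 and 7.14 against 5.45 to 5.7, a summed intensity of 7540 to 15022 against 3273 to 5007, 18 of 23 above 0 and a median of 0.93. Cd5l, a secreted scavenger protein of tissue macrophages, was 8.29, 8.02 and 8.25 on the fetal arrays and 4.72, 4.26, 4.68 and 4.45 on the control arrays (log2 difference 3.66, SE 0.17, adjusted p = 1.6e-07). Marco, a scavenger receptor, was 8, 8.13 and 7.2 on the fetal arrays and 5.36, 5.6, 5.5 and 5.51 on the control arrays (log2 difference 2.29, SE 0.2, adjusted p = 3.1e-05). Hmox1, the heme-degrading enzyme abundant in macrophages that recycle red cells, was 11.35, 8.07 and 10.29 on the fetal arrays and 5.42, 6.08, 5.36 and 6.16 on the control arrays (log2 difference 4.15, SE 0.6, adjusted p = 0.00168). These values did not overlap between the groups. With C1qb and Mrc1, described below, 5 macrophage markers were called, all higher, and 5 to 8 when 1 array was left out, the 8 without fetal array 2. Of the defining markers, Vsig4 was at the floor on all arrays, C1qa was 4 to 4.41 and Adgre1 (F4/80) was 4.36, 4 and 6.43 on the fetal arrays and at the floor on the 4 control arrays (log2 difference 0.93, SE 0.39, adjusted p = 0.265).

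Neutrophil granule genes ran in the opposite order of fetal arrays, with list means of 9.22, 7.48 and 6.75 against 5.41 to 6.85 and a summed intensity of 5534 to 42255 against 1837 to 6296. Of 18 tested 15 were above 0, the median was 1.33 and 3 were called higher. Camp, an antimicrobial peptide of secondary granules, was 12.35, 10.49 and 9.05 on the fetal arrays and 6.01, 5.46, 5.98 and 9.04 on the control arrays (log2 difference 4.01, SE 0.83, adjusted p = 0.0212), and its call was lost without fetal array 1 or 2 or control array 1 (adjusted p 0.0539 to 0.0702). Ngp, another granule protein, differed by 4.35 (adjusted p = 0.0234, lost without fetal array 1 or 2 or control array 1 or 3, adjusted p 0.0549 to 0.0854), and Lcn2, an iron-binding granule protein, by 3.51 (0.0484, lost without fetal array 1 or 2 or control array 1, 2 or 3, adjusted p 0.0878 to 0.17); the groups overlapped for both. S100a8, a calcium-binding protein of neutrophils, was 13.24, 12.56 and 10.38 on the fetal arrays and 5.92, 7.84, 4.03 and 10.14 on the control arrays (log2 difference 5.08, SE 1.39, adjusted p = 0.0746) and was not called. Mpo (myeloperoxidase) was 11.43, 9.26 and 9.09 on the fetal arrays and 4.87, 9.21, 8.81 and 8.75 on the control arrays (log2 difference 2.02, SE 1.09, adjusted p = 0.412), and Elane (neutrophil elastase) was 9.93, 4.58 and 7.05 on the fetal arrays and 4 to 6.03 on the controls (log2 difference 1.94, SE 0.87, adjusted p = 0.305). The count called was 0 without fetal array 1 or control array 1, 1 without fetal array 2 or control array 3, and 5 without control array 4.

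Erythroid markers were high on all 3 fetal arrays, with means of 9.13, 9.12 and 8.77 against 6.76 to 7.9, a summed intensity of 20732 to 26793 against 7218 to 14800, 20 of 22 above 0 and a median of 1.6. Of these, 5 were called, all higher. Kel, which encodes the Kell blood group protein, was 9.19, 8.56 and 8.88 on the fetal arrays and 4.3, 4, 4.85 and 6.61 on the control arrays (log2 difference 3.94, SE 0.72, adjusted p = 0.0095). Rhag, a Rhesus-associated membrane protein, differed by 2.06 (adjusted p = 0.0312) and Epb42, a protein of the red cell skeleton, by 1.33 (0.0312). The call of Rhag was lost without fetal array 1 or 2 or control array 1, 2, 3 or 4 (adjusted p 0.0554 to 0.1), and that of Epb42 was lost without fetal array 2 or 3 or control array 1, 2, 3 or 4 (adjusted p 0.0503 to 0.123). Klf1, the master factor of the red cell line, was 11.44, 11.21 and 9.39 on the fetal arrays and 6.84, 6.07, 9.55 and 8.36 on the control arrays (log2 difference 2.97, SE 0.8, adjusted p = 0.0703), so that 1 control array lay within the fetal range. Alas2, the erythroid enzyme that starts heme synthesis, was 7.58, 6.31 and 6.07 on the fetal arrays and 6.14, 5.95, 6.56 and 6.31 on the control arrays (log2 difference 0.41, SE 1.24, adjusted p = 0.939). The count called ran from 2 (without fetal array 2 or control array 1) to 6 (without control array 3), with 3 without fetal array 1 or 3 or control array 2 or 4.

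Megakaryocyte genes leaned the other way: 15 of 21 were below 0, the median was −0.67, and list means were 6.15, 6.26 and 6.76 in fetal liver and 7.04 to 7.42 in the controls. The thrombin receptor F2r was 8.16, 8.5 and 9.44 on the fetal arrays and 9.91, 10.7, 11.39 and 11.16 on the control arrays (log2 difference −2.09, SE 0.39, adjusted p = 0.0107). Integrin beta 3 (Itgb3), which pairs with Itga2b on platelets, was 4.66, 6.08 and 4.02 on the fetal arrays and 9.65, 7.04, 7.29 and 9.41 on the control arrays (log2 difference −3.43, SE 0.64, adjusted p = 0.0111), and its call was lost without fetal array 3 (adjusted p = 0.0518). Pf4, the platelet chemokine, was 4.49, 5.36 and 9.41 on the fetal arrays and 7.45, 7.06, 7.82 and 9.36 on the control arrays (log2 difference −1.51, SE 0.97, adjusted p = 0.503) and spread widely in fetal liver. The megakaryocyte count was 2, and 1 without fetal array 3. Itga2b differed by −0.8 (adjusted p = 0.213). Of 17 B and T cell genes limma called 0 (1 with an unadjusted p under 0.05, and 0 by an ordinary linear model), with a median of 0. Cd79a (−0.15, adjusted p = 0.83) and Cd3e, the defining B and T cell genes tested, were near the floor. Of 13 mast cell, basophil and eosinophil genes 7 were above 0, and the 1 called, lower, was Gata2, which HSCs also express. A difference in bulk RNA cannot tell fewer cells of a type from less RNA per cell. The part of these other cell types, or of the uneven fetal arrays, in the results below was not tested.

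**Figure D3:**
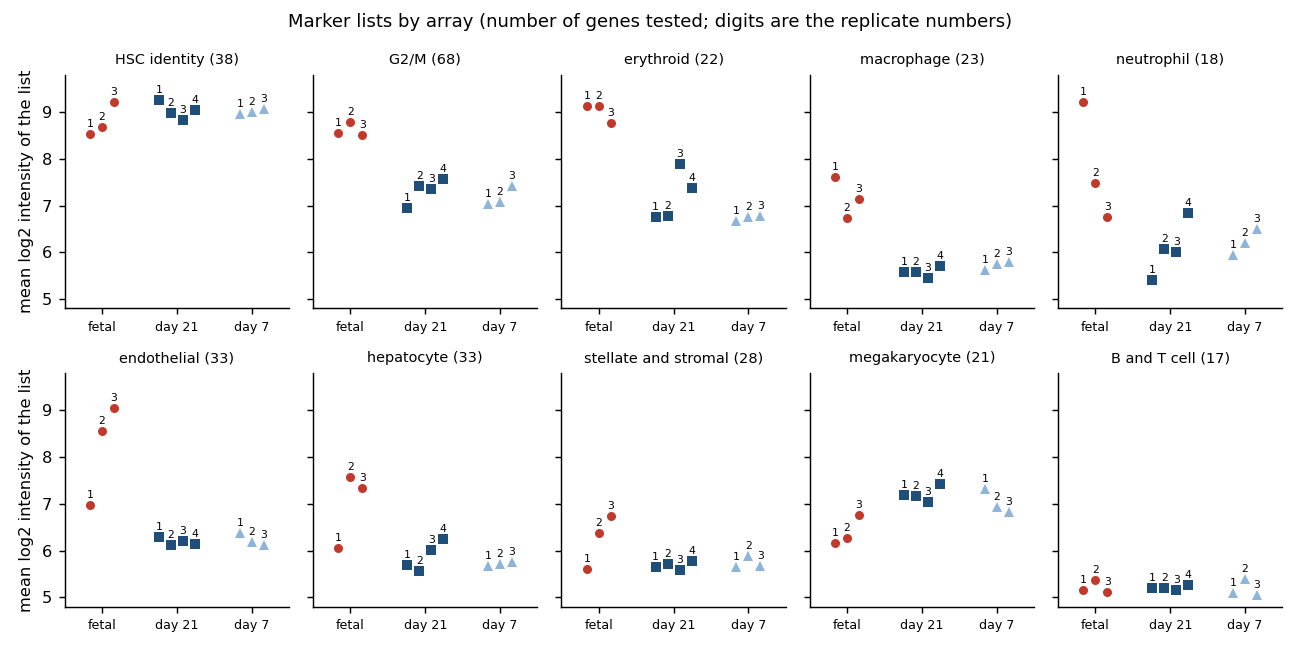
Mean log2 intensity (vertical axis) of 10 marker lists on each fetal liver, control day 21 and control day 7 array, 1 point per array with its replicate number. Endothelial and hepatocyte lists are lowest in fetal liver on array 1 (6.98 and 6.05), the neutrophil list is highest there (9.22), and the macrophage and erythroid lists are above all day 21 controls on all 3 fetal arrays.

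The 12 largest called rises were taken only among genes whose groups did not overlap. They were led by genes of red cells, macrophages, sinusoidal endothelium and fetal growth. Slc4a1, the anion exchanger band 3 of the red cell membrane, was 10.33, 11.35 and 10.14 on the fetal arrays and 4.27, 4.95, 4 and 4.45 on the control arrays (log2 difference 6.19, SE 0.93, adjusted p = 0.00234), a 72.8-fold difference. The Slc4a1 call held in each of the 7 fits that left out 1 array. C1qb, a chain of the complement protein C1q made by macrophages, was 10.17, 10.43 and 9.87 on the fetal arrays and at the floor on the 4 control arrays (log2 difference 6.16, SE 0.7, adjusted p = 0.00025), at least 71.4-fold higher. Stfa3, a protease inhibitor of the stefin family, was 12.19, 9.61 and 8.72 on the fetal arrays and at the floor on the 4 control arrays (log2 difference 6.17, SE 0.54, adjusted p = 2.8e-05), at least 72.2-fold higher, though near-identical stefin genes may share its probes. The controls gave only a bound for either gene. Limma's SE pools the spread of all groups of the series. For Stfa3 both control groups had a standard deviation (SD) of 0 and the fetal SD was 1.8, so its SE understates the fetal spread. Acp5, an acid phosphatase of osteoclasts and macrophages, was 10.41, 11.11 and 9.3 on the fetal arrays and 4.22, 4.66, 4.9 and 4.76 on the control arrays (log2 difference 5.64, SE 0.81, adjusted p = 0.00168). Mrc1, the mannose receptor of macrophages and sinusoidal endothelium, was 7.89, 9.12 and 10.47 on the fetal arrays and 4, 4.43, 4 and 4 on the control arrays (log2 difference 5.05, SE 0.48, adjusted p = 5e-05). Lyve1, a hyaluronan receptor of lymphatic and sinusoidal endothelium, was 8.92, 11.92 and 11.76 on the fetal arrays and 5.34, 5, 5.07 and 5.23 on the control arrays (log2 difference 5.71, SE 0.52, adjusted p = 3.5e-05). Oit3, a secreted protein of liver sinusoids, was 8.46, 11.61 and 11.32 on the fetal arrays and 5.38, 5.17, 5.59 and 5.44 on the control arrays (log2 difference 5.07, SE 0.54, adjusted p = 0.00013). Cd36, a fatty acid receptor of endothelium and macrophages, was 7.33, 9.58 and 10.41 on the fetal arrays and 4.26, 4, 4 and 4.19 on the control arrays (log2 difference 4.99, SE 0.64, adjusted p = 0.00073). Pklr, the pyruvate kinase of liver and red cells, was 12.78, 12.22 and 11.74 on the fetal arrays and 6.82, 6.03, 9.05 and 7.24 on the control arrays (log2 difference 4.96, SE 0.86, adjusted p = 0.00638). The remaining 3 of the 12, Mest, Hmga2 and Igf2, belong to the fetal growth genes below. Lyve1, Oit3 and Cd36 were lowest in fetal liver on array 1, as the endothelial list was, while Stfa3 and Pklr were highest there. Lyve1 and Oit3 had an SD of 1.69 and 1.74 in fetal liver and of 0.16 and 0.18 in the day 21 controls. In the fit of the 7 arrays alone Stfa3 (adjusted p = 0.0518), Lyve1 (0.0539), Oit3 (0.0779), Cd36 (0.0692) and Pklr (0.0735) were not called. Slc4a1, C1qb, Acp5 and Mrc1 kept their calls in that fit.

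The 12 largest called falls were also taken only among genes whose groups did not overlap. They included stress and signalling feedback genes and, for antigen presentation, H2-Q5. H2-Q5, a class I gene of the Qa region, was 5.03, 6.13 and 5.05 on the fetal arrays and 11.36, 10.54, 11.3 and 10.99 on the control arrays (log2 difference −5.64, SE 0.28, adjusted p = 1.6e-07), a 49.9-fold difference. Its other probe set did not pass the test (0.08, adjusted p = 0.888 over probe sets), and Qa genes are near-identical, so the name is uncertain. Bhlhe40, a transcriptional repressor of the clock and of stress responses, was 5.06, 5.76 and 4.86 on the fetal arrays and 11.26, 10.62, 10.23 and 11.09 on the control arrays (log2 difference −5.58, SE 0.31, adjusted p = 3.6e-07), 47.7-fold lower. Rgs1, which shortens signals of G protein-coupled receptors, was 8.07, 5.56 and 7.16 on the fetal arrays and 11.81, 12.25, 12.25 and 11.89 on the control arrays (log2 difference −5.12, SE 0.4, adjusted p = 1.6e-05). Klf9, a zinc-finger factor induced by glucocorticoids, was 4, 9.04 and 7.98 on the fetal arrays and 12.63, 12.13, 12.57 and 12.19 on the control arrays (log2 difference −5.37, SE 0.85, adjusted p = 0.00336). Fetal array 1 was at the floor for Klf9. Aldh1a1, a retinaldehyde dehydrogenase, was at the floor on the 3 fetal arrays and 9.26, 8.9, 9.39 and 9.61 on the control arrays (log2 difference −5.29, SE 0.45, adjusted p = 2.7e-05), at least 39.1-fold lower in fetal liver. Creb5, a factor of the CREB family, was at the floor on the 3 fetal arrays and 9.92, 8.82, 6.73 and 8.84 on the control arrays (log2 difference −4.58, SE 0.76, adjusted p = 0.00515), at least 23.8-fold lower, while its other probe sets did not pass the test. Pfn2, an actin-binding profilin, was at the floor on the 3 fetal arrays and 8.29, 7.41, 9.62 and 9.88 on the control arrays (log2 difference −4.8, SE 1.02, adjusted p = 0.0234), at least 27.9-fold lower. Its other probe sets did not pass the test, at −1.85 (adjusted p = 0.14 over probe sets) and 0.24 (0.912). The Pfn2 call was lost without fetal array 1, 2 or 3 or control array 3 or 4 (adjusted p 0.0525 to 0.0699), and against day 7, where 4, 4 and 8.13 were measured, the difference was −1.38 (adjusted p = 0.603). Muc13, a membrane mucin, was 7.61, 6.76 and 5.78 on the fetal arrays and 10.66, 11.17, 11.21 and 11.92 on the control arrays (log2 difference −4.52, SE 0.37, adjusted p = 2e-05). In the fit of the 7 arrays alone Klf9 (adjusted p = 0.189), Creb5 (0.0848) and Pfn2 (0.0539) were not called. H2-Q5, Bhlhe40, Rgs1, Aldh1a1 and Muc13 kept their calls in that fit. Hspa1b, Socs3, Skil and Nfkbid are given with their pathways below.

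**Figure D4:**
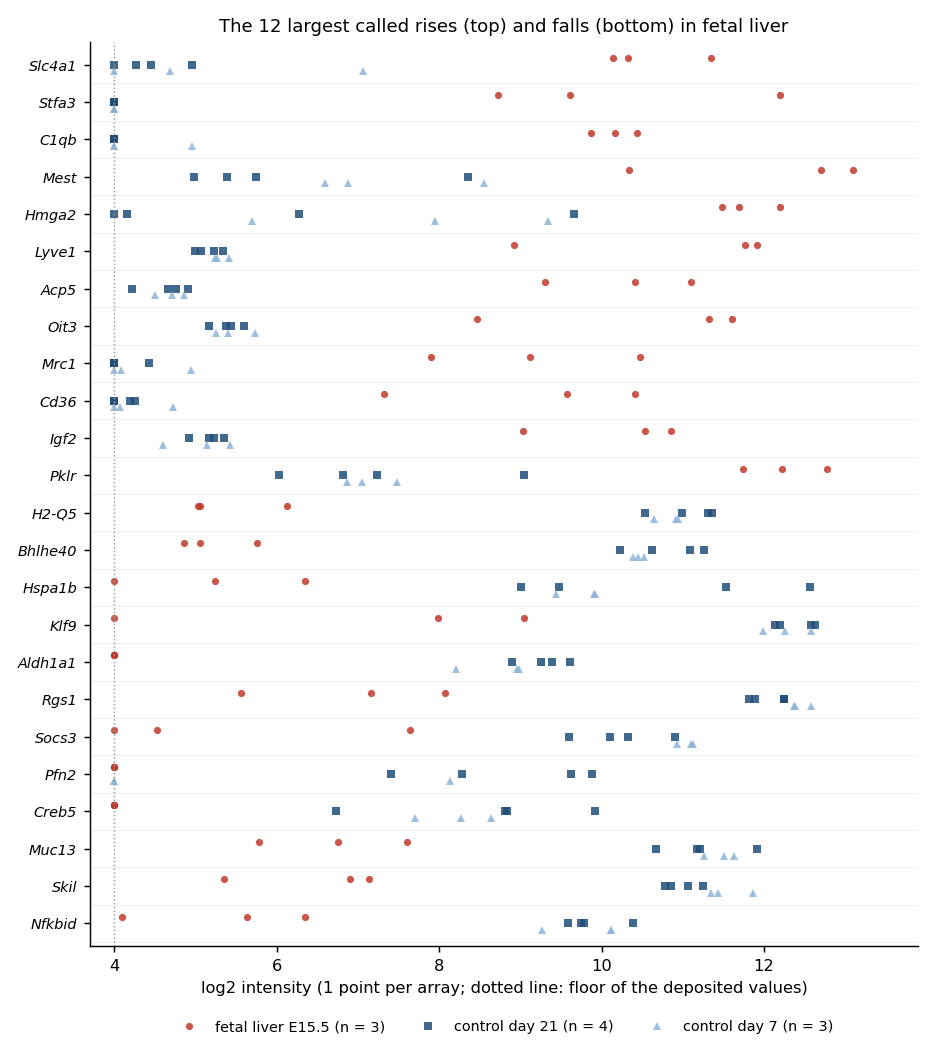
Log2 intensity (horizontal axis) of the 12 largest called rises (top) and the 12 largest called falls (bottom) on each fetal liver array (red circles), control day 21 array (dark squares) and control day 7 array (light triangles), with the floor as a dotted line. Only genes whose fetal and day 21 points do not overlap were eligible, so the gap between them follows from the selection. For Pfn2 2 of the day 7 arrays lie at the floor with fetal liver.

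Genes of the fetal HSC programme were called in 1 direction. Of 12 tested, 6 were called higher (50% of the list, where 1.41% of all genes were called higher), 11 were above 0 and the median was 2.6. List means were 7.6, 8.48 and 8.75 on the fetal arrays and 5.3 to 6.38 on the control arrays. Fetal array 1 was the lowest fetal array for this list, for Igf2 and for Igf2bp1, as it was for the endothelial and hepatocyte lists. The part of other cell types in these rises was not tested. Igf2, the fetal insulin-like growth factor, was 9.03, 10.53 and 10.85 on the fetal arrays and 5.17, 5.23, 4.92 and 5.35 on the control arrays (log2 difference 4.97, SE 0.41, adjusted p = 2e-05), 31.4-fold higher, and 4.6, 5.15 and 5.43 in the day 7 controls. Hmga2, a chromatin protein that supports the self-renewal of fetal stem cells and is silenced by let-7 microRNAs, was 11.48, 11.7 and 12.2 on the fetal arrays and 6.28, 9.66, 4 and 4.15 on the control arrays (log2 difference 5.77, SE 1.27, adjusted p = 0.0284). Its controls ran from the floor to 9.66, and the call was lost without fetal array 1, 2 or 3 or control array 1, 3 or 4 (adjusted p 0.0546 to 0.088). In the day 7 controls Hmga2 was 5.7, 7.94 and 9.34, and the difference from them was not called (4.13, adjusted p = 0.142). Other Hmga2 probe sets differed by 5.7 (adjusted p = 0.00573 over probe sets), 5.6 (0.0002) and 1.2 (0.238). Igf2bp3, an RNA-binding protein of fetal tissues that Lin28b keeps free of let-7, was 8.42, 8.38 and 8.73 on the fetal arrays and 4.63, 6.14, 4.57 and 4.95 on the control arrays (log2 difference 3.44, SE 0.45, adjusted p = 0.00089). Igf2bp1, its relative, was 6.13, 7.89 and 8 on the fetal arrays and 5.48, 5.39, 5.81 and 5.68 on the control arrays (log2 difference 1.75, SE 0.33, adjusted p = 0.0113), a call lost without fetal array 2 (adjusted p = 0.0551). Neither gene overlapped between the groups. Plagl1, an imprinted zinc-finger factor, was 9.66, 10.89 and 10.2 on the fetal arrays and 4, 8.62, 4 and 5.22 on the control arrays (log2 difference 4.79, SE 1.03, adjusted p = 0.0254), a call lost without fetal array 2 or 3 or control array 1, 3 or 4 (adjusted p 0.0541 to 0.091). Dlk1, an imprinted membrane protein also made by hepatoblasts, was 6.62, 9.8 and 9.78 on the fetal arrays and 4, 4, 4 and 5.32 on the control arrays (log2 difference 4.41, SE 0.83, adjusted p = 0.0117), a call lost without fetal array 2 or 3 (adjusted p 0.0541 to 0.058). Against the day 7 controls Dlk1 was not called (3.13, adjusted p = 0.0885). Dlk1 is on the hepatocyte list as well, and fetal array 1, the lowest in that list, was also the lowest for Dlk1. In fits that left out 1 array the fetal HSC list had 6 called genes without fetal array 1 or control array 2, 4 without control array 1, 3 or 4, 3 without fetal array 3 and 2 without fetal array 2.

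Imprinted genes, which are expressed from 1 parental copy and often act in fetal growth, had 6 called members of 30, all higher, with a median of 0.27. Besides Igf2, Plagl1 and Dlk1 these were Mest, Peg3 and Peg10. Mest, expressed from the paternal copy, was 10.34, 12.7 and 13.09 on the fetal arrays and 5.74, 8.36, 4.98 and 5.38 on the control arrays (log2 difference 5.93, SE 0.94, adjusted p = 0.0035), 60.8-fold higher. Peg3, a paternally expressed zinc-finger gene, was 6.64, 6.65 and 7.61 on the fetal arrays and 4.07, 4.01, 4.83 and 4.17 on the control arrays (log2 difference 2.7, SE 0.24, adjusted p = 3e-05). Peg10, a gene derived from a retrotransposon, was 5.53, 8.16 and 8.72 on the fetal arrays and at the floor on the 4 control arrays (log2 difference 3.47, SE 0.68, adjusted p = 0.0147), at least 11.1-fold higher, with a call lost without fetal array 2 or 3 (adjusted p 0.0666 to 0.0671). All 3 were lowest in fetal liver on array 1 or, for Peg3, level there with array 2. The count was 3 without fetal array 2 or 3. Of 27 let-7 targets 4 were called higher and 1 lower. The higher ones were Hmga2, Igf2bp3, Igf2bp1 and Dna2, a nuclease of DNA replication (1.59, adjusted p = 0.0212, lost without fetal array 1 or 3, adjusted p 0.0605 to 0.0697). Cdk6, which drives entry into the cell cycle, was the lower one, at 8.62, 8.59 and 7.94 on the fetal arrays and 9.56, 10.2, 10.33 and 9.99 on the control arrays (log2 difference −1.64, SE 0.25, adjusted p = 0.00232). The let-7 count was 3 without fetal array 1, 2 or 3. Of 12 hemoglobin genes listed, 6 had no probe set of their own in the annotation and are not analysed here. Of the 6 tested limma called 0 (3 higher at an unadjusted p under 0.05, 0 by an ordinary linear model). Their summed intensity was 2970 to 3999 in fetal liver and 1419 to 2179 in the controls. Hemoglobin gene copies are near-identical, and the smallest p was that of Hba-a1 (0.67, adjusted p = 0.0579). Its probe set was low in both groups, at 5.37, 5.36 and 5.4 on the fetal arrays and 4.42, 4.6, 4.94 and 4.87 on the control arrays.

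Immediate-early genes, which are transcribed within minutes of a stimulus and without new protein synthesis, formed the list with the most negative median. Of 41 tested 22 were called, 53.7% of the list where 1.3% of all genes were called lower, 39 were below 0 and the median was −1.58. List means were 8.9, 8.38 and 8.66 on the fetal arrays, 10.23 to 10.48 on the day 21 controls and 10.61 to 10.86 on the day 7 controls. The promoters of the following genes are shown because these called members hold matches to motifs that cAMP or serum signals act through. Each line gives the 250 bases before the RefSeq start site on GRCm38.p6, 5′ to 3′. Capitals mark TGACG, the core of the cAMP response element (CRE), on either strand (CGTCA on the other), and in Dusp5 also the CArG box of serum response factor.

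Nr4a1, chr15:101266596-101266845, plus strand: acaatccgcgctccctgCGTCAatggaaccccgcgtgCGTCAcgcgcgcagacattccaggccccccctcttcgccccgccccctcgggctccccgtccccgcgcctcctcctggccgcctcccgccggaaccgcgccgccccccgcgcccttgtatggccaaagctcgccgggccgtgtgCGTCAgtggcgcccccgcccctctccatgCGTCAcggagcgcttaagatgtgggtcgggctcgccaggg

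Nr4a2, chr2:57124004-57124253, minus strand: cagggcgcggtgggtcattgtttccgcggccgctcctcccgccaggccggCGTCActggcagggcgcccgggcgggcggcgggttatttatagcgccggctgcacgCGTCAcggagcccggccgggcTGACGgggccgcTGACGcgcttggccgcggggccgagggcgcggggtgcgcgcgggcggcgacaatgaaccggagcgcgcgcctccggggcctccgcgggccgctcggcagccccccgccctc

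Dusp5, chr19:53528895-53529144, plus strand: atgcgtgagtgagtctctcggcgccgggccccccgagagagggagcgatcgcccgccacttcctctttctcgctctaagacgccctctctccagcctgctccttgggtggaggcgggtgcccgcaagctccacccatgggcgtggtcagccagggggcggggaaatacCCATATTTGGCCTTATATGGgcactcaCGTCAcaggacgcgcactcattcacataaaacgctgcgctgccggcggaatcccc

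The Nr4a1 window holds 4 CRE cores, at 233, 213, 69 and 40 bases before the start, and the Nr4a2 window holds 4, at 200, 144, 123 and 111 bases. Dusp5 has 1 CRE core, 55 bases before the start, and 2 CArG boxes, at 82 and 72 bases. RefSeq promoters were matched for 31 of the 41 genes, 40 windows in all. The CRE core, searched on both strands, was in 65% of these windows against 17.8% of all 32851 promoters, and the full CRE TGACGTCA, which contains the core, was in 10% against 1.55%. The CArG box was in 15% against 1.47% and the AP-1 site TGANTCA in 5% against 6.75%. In the 22 windows of called members the CRE core was in 72.7% and the CArG box in 9.09%. The list was chosen from known immediate-early genes, so these shares describe the list and not the difference between the groups. A match describes the letters of these windows only.

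The nuclear receptors and AP-1 factors of the list were among the called genes. Nr4a1 (Nur77), a nuclear receptor without a known ligand that restrains HSC division, was 10.2, 7.03 and 7.82 on the fetal arrays and 12.26, 12.14, 11.8 and 11.81 on the control arrays (log2 difference −3.65, SE 0.53, adjusted p = 0.00173). Nr4a2 (Nurr1), its relative, was 8.59, 5.37 and 9.66 on the fetal arrays and 11.73, 11.5, 11.08 and 11.47 on the control arrays (log2 difference −3.57, SE 0.7, adjusted p = 0.0143). Both were spread over the fetal arrays and tight in the controls. Egr1, a zinc-finger factor that keeps adult HSCs quiescent and in the niche, was 11.41, 9.73 and 10 on the fetal arrays and 13.16, 13.05, 13.01 and 13.11 on the control arrays (log2 difference −2.7, SE 0.29, adjusted p = 0.00015). Fosb, an AP-1 subunit, was 8.82, 7.83 and 9.41 on the fetal arrays and 10.97, 11.31, 11.68 and 12.36 on the control arrays (log2 difference −2.9, SE 0.37, adjusted p = 0.00072). Jun, the AP-1 partner, was 12.07, 11.16 and 10.92 on the fetal arrays and 13.06, 12.88, 12.95 and 13.18 on the control arrays (log2 difference −1.64, SE 0.21, adjusted p = 0.00081). Of these genes every control array lay above every fetal array. Junb, another AP-1 subunit, was 6.59, 6.91 and 6.64 on the fetal arrays and 9.14, 7.39, 9.09 and 8.71 on the control arrays (log2 difference −1.87, SE 0.35, adjusted p = 0.0111). Maff, a small MAF factor, was 8.51, 7.58 and 8.09 on the fetal arrays and 11.4, 11.05, 11.21 and 10.87 on the control arrays (log2 difference −3.07, SE 0.24, adjusted p = 1.6e-05). Klf4, a factor of myeloid cells and pluripotency, was 8.83, 7.99 and 9.05 on the fetal arrays and 10.54, 11, 11.04 and 11.68 on the control arrays (log2 difference −2.44, SE 0.33, adjusted p = 0.00118), and Klf10, a factor induced by TGF-beta, was 10.07, 9.86 and 9.39 on the fetal arrays and 11.21, 11.42, 11.48 and 11.25 on the control arrays (log2 difference −1.57, SE 0.2, adjusted p = 0.00063). Gadd45b, a stress sensor of MAP kinase signalling, was 6.2, 6.64 and 6.83 on the fetal arrays and 9.92, 9.31, 12.07 and 11.51 on the control arrays (log2 difference −4.14, SE 0.52, adjusted p = 0.0006). Calls of these genes held in each fit that left out 1 array.

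Feedback members of the list were also among those called lower. Ier3, an inhibitor of cell death induced by stress, was 10.1, 8.48 and 9.13 on the fetal arrays and 11.12, 11.78, 11.98 and 11.62 on the control arrays (log2 difference −2.39, SE 0.32, adjusted p = 0.00101). Rgs2, which limits signals through Gq, was 11.35, 10.65 and 11.49 on the fetal arrays and 12.95, 12.83, 12.76 and 12.73 on the control arrays (log2 difference −1.66, SE 0.2, adjusted p = 0.0004). Dusp5, a phosphatase of nuclear ERK, was 8.69, 8.45 and 8.4 on the fetal arrays and 10.27, 10.73, 9.15 and 11.14 on the control arrays (log2 difference −1.81, SE 0.42, adjusted p = 0.0345), and its call was lost without fetal array 1, 2 or 3 or control array 1, 2 or 4 (adjusted p 0.0591 to 0.102). Btg2, a factor that slows division, differed by −1.49 (adjusted p = 0.0457), a call lost without fetal array 2 or 3 or control array 2, 3 or 4 (adjusted p 0.0578 to 0.164). Counts over the list were 19 to 24 when 1 array was left out, 3 in the fit of the 7 arrays alone and 28 against the day 7 controls.

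NF-kB feedback genes, which NF-kB switches on and which then restrain it, had 7 called members of 26, all lower (26.9% of the list), with a median of −1.2 and 24 below 0. The promoter of Nfkbia is shown because the gene encodes the inhibitor IkBa, the classic target of this loop. Capitals mark a match to GGGNNNTTCC, the NF-kB motif, 29 bases before the start.

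Nfkbia, chr12:55492648-55492897, minus strand: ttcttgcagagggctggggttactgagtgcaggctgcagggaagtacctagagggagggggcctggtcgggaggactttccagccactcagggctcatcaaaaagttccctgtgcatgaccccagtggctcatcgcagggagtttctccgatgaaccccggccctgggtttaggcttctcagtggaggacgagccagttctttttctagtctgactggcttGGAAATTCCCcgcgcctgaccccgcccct

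The motif was in 46.2% of the 26 windows of 21 genes on the list, searched on both strands, against 4.65% of all promoters. In the 9 windows of called members it was in 55.6%. The list was chosen for genes that NF-kB switches on, so these shares describe the list and not the difference between the groups. Nfkbia was 10.49, 9.12 and 9.81 on the fetal arrays and 11.58, 11.56, 12.26 and 11.2 on the control arrays (log2 difference −1.84, SE 0.29, adjusted p = 0.00327), and its 4 other probe sets were called as well. Nfkbid, an atypical IkB protein, was 5.64, 6.35 and 4.1 on the fetal arrays and 10.39, 9.75, 9.78 and 9.59 on the control arrays (log2 difference −4.52, SE 0.49, adjusted p = 0.00014). Ptgs2, the prostaglandin synthase COX-2, was 5.04, 4.49 and 4 on the fetal arrays and 8.88, 8.27, 9.08 and 8.26 on the control arrays (log2 difference −4.11, SE 0.46, adjusted p = 0.00022). The groups did not overlap for any of the 3. Tnfaip3 (A20), an enzyme that removes ubiquitin to stop NF-kB signals, was 6.72, 5.45 and 5.6 on the fetal arrays and 6.77, 8.63, 7.47 and 8 on the control arrays (log2 difference −1.79, SE 0.42, adjusted p = 0.0383), a call lost without fetal array 2 or 3 or control array 2, 3 or 4 (adjusted p 0.0549 to 0.143). Its day 7 controls were higher than those of day 21, at 10.3, 9.63 and 9.59. Zc3h12a, an RNase of inflammatory messages, differed by −2.43 (adjusted p = 0.0371, lost without fetal array 1 or 2 or control array 1, 2 or 4, adjusted p 0.0681 to 0.147), Rel, an NF-kB subunit, by −1.49 (0.0343, lost without fetal array 1 or 3 or control array 2, 3 or 4, adjusted p 0.0582 to 0.116) and Nfkbiz, a nuclear IkB, by −1.37 (0.034, lost without fetal array 1 or 2 or control array 1, 2 or 4, adjusted p 0.0511 to 0.123). The count over the list was 3 without control array 2 or 4, 4 without fetal array 1 or 2 and 8 without control array 3.

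**Figure D5:**
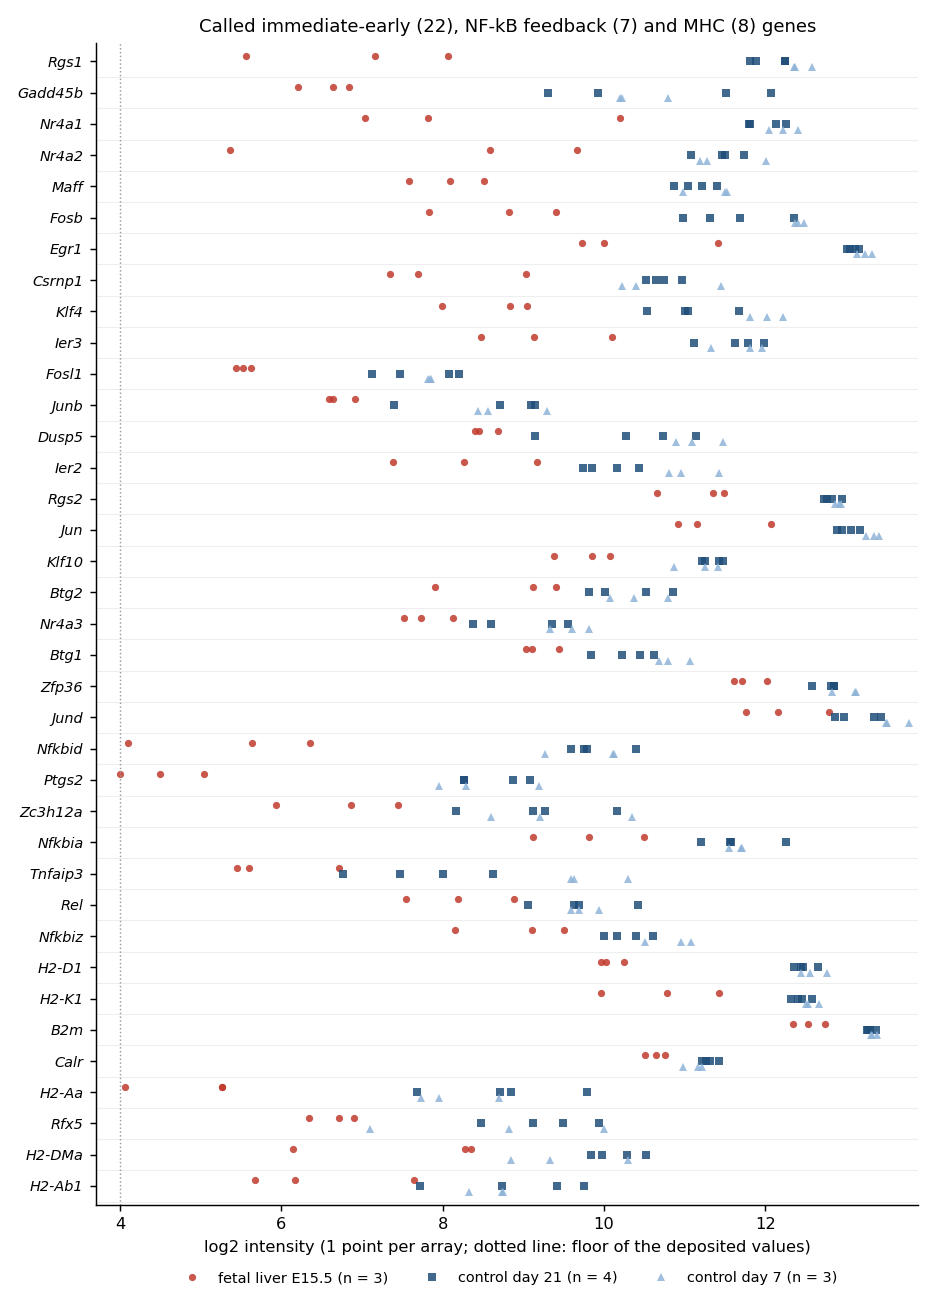
Log2 intensity (horizontal axis) of the 22 called immediate-early, 7 called NF-kB feedback and 8 called MHC genes on each fetal liver (red circles), control day 21 (dark squares) and control day 7 array (light triangles), with the floor as a dotted line. Fetal points lie to the left of the day 21 controls, and the day 7 controls lie mostly with those of day 21.

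Chaperone and cytokine feedback genes held further large falls. Of 22 heat shock genes 5 were called, all lower, with a median of −0.19. Hspa1b, an inducible HSP70 with the near-identical copy Hspa1a, was 4, 6.35 and 5.24 on the fetal arrays and 9, 9.47, 11.53 and 12.56 on the control arrays (log2 difference −5.44, SE 1.04, adjusted p = 0.0122). Dnajb4, a co-chaperone, was 9.38, 9.53 and 9.92 on the fetal arrays and 10.58, 11.05, 11.73 and 11.12 on the control arrays (log2 difference −1.51, SE 0.23, adjusted p = 0.00291). Hspa5, the chaperone BiP of the endoplasmic reticulum, was 12.05, 11.38 and 11.25 on the fetal arrays and 12.93, 12.59, 12.53 and 12.76 on the control arrays (log2 difference −1.14, SE 0.19, adjusted p = 0.00564), and the co-chaperone Dnaja1 differed by −0.73 (adjusted p = 0.00564). Of 18 MAPK and cytokine feedback genes 3 were called, all lower, with a median of −0.93. Socs3, which blocks receptors that signal through STAT3, was 4.53, 4 and 7.64 on the fetal arrays and 10.33, 10.9, 9.6 and 10.1 on the control arrays (log2 difference −4.84, SE 0.67, adjusted p = 0.00119). Dusp4, a MAP kinase phosphatase, differed by −3.26 (adjusted p = 0.0481), a call lost without fetal array 2 or 3 or control array 1, 2, 3 or 4 (adjusted p 0.0561 to 0.179). Together with Dusp5 these made up the 3, and 1 remained called without fetal array 2 or 3 or control array 1, 2 or 4.

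Antigen presentation lists held a minority of called genes, all lower in fetal liver. Of 15 class I genes 4 were called, all lower, 13 were below 0 and the median was −0.78. H2-D1, a heavy chain, was 10.25, 10.03 and 9.97 on the fetal arrays and 12.47, 12.65, 12.36 and 12.44 on the control arrays (log2 difference −2.4, SE 0.2, adjusted p = 2.5e-05). H2-K1, another heavy chain, was 10.78, 9.96 and 11.43 on the fetal arrays and 12.58, 12.45, 12.32 and 12.4 on the control arrays (log2 difference −1.72, SE 0.25, adjusted p = 0.00173). Classical heavy chains are similar in sequence, and their probes may be shared. B2m, the light chain of all class I molecules, was 12.34, 12.53 and 12.74 on the fetal arrays and 13.37, 13.3, 13.26 and 13.28 on the control arrays (log2 difference −0.77, SE 0.12, adjusted p = 0.00251), and the loading chaperone Calr differed by −0.67 (adjusted p = 0.0138). The groups did not overlap for H2-D1, H2-K1 or B2m. Of 15 class II genes 4 were called, all lower, with 14 below 0 and a median of −0.55. H2-Aa, the alpha chain of I-A, was 5.26, 5.26 and 4.06 on the fetal arrays and 7.68, 9.79, 8.7 and 8.84 on the control arrays (log2 difference −3.89, SE 0.5, adjusted p = 0.00068). Its partner H2-Ab1 differed by −2.41 (adjusted p = 0.0284), a call lost without fetal array 2 or 3 or control array 1 or 4 (adjusted p 0.0671 to 0.113). H2-DMa, which loads peptides, differed by −2.56 (0.0312), a call lost without fetal array 2 or control array 1, 3 or 4 (adjusted p 0.056 to 0.112), and Rfx5, a factor for class II promoters, by −2.6 (0.034), a call lost without fetal array 1, 2 or 3 or control array 1, 2 or 3 (adjusted p 0.0645 to 0.115). The class II count was 1 without fetal array 2 or control array 1 and 2 without fetal array 3 or control array 3 or 4.

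Of 48 interferon-stimulated genes, which pIpC induces, 2 were called lower (4.17%) and 1 higher (2.08%), where 1.3% and 1.41% of all genes were. Of the 48, 15 were above 0, where 53.7% of all genes were, and the median was −0.46. Irf1, an early interferon factor that also activates class I genes, was 7, 8.18 and 8.03 on the fetal arrays and 10.21, 10.17, 9.7 and 9.96 on the control arrays (log2 difference −2.27, SE 0.3, adjusted p = 0.00085). Ly6e, a surface protein induced by interferon, differed by −1.34 (adjusted p = 0.0186, lost without fetal array 2 or 3, adjusted p 0.0567 to 0.0815), and Parp9, an ADP-ribosylation cofactor, by 2.52 (0.0257, lost without fetal array 1 or 2 or control array 3 or 4, adjusted p 0.0549 to 0.083). Against the day 7 controls Parp9 differed by 0.92 (adjusted p = 0.489). By list median the interferon genes differed by −0.27 between the day 21 and the day 7 controls (day 21 minus day 7).

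Among growth factor and patterning pathways, single genes moved in each direction. In the TGF-beta and BMP list 1 of 28 was called higher (3.57%, against 1.41% of all genes). Of the same list 4 were called lower (14.3% against 1.3%), and the median was 0.04. Bmp2, a secreted ligand, was 5.99, 6.77 and 7.41 on the fetal arrays and 4, 4.15, 4 and 4 on the control arrays (log2 difference 2.69, SE 0.25, adjusted p = 3.5e-05). Skil (SnoN), a repressor of SMAD targets, was 7.14, 5.35 and 6.91 on the fetal arrays and 10.78, 11.25, 10.86 and 11.06 on the control arrays (log2 difference −4.52, SE 0.42, adjusted p = 3.5e-05). Smad7, the inhibitory SMAD, was 8.47, 6.98 and 7.37 on the fetal arrays and 9.65, 10.08, 9.45 and 9.08 on the control arrays (log2 difference −1.95, SE 0.34, adjusted p = 0.00638). Both are feedback genes that TGF-beta signals switch on. Bambi, a decoy receptor, differed by −2.87 (adjusted p = 0.0196), a call lost without fetal array 2 (adjusted p = 0.0793), and Acvr1b, an activin receptor, by −1.79 (0.0457), a call lost without fetal array 1, 2 or 3 or control array 1 or 4 (adjusted p 0.0871 to 0.122). The TGF-beta count was 3 without fetal array 2. Of 33 Wnt and Notch genes 1 was called higher (3.03%, against 1.41% of all genes) and 3 lower (9.09% against 1.3%). Fzd9, a Wnt receptor, was 7.2, 6.74 and 6.17 on the fetal arrays and 4.93, 4.99, 4.76 and 4.68 on the control arrays (log2 difference 1.86, SE 0.29, adjusted p = 0.00299), and Fzd8, another Frizzled receptor, was 7.03, 5.46 and 4.65 on the fetal arrays and 10.04, 8.9, 8.57 and 9.48 on the control arrays (log2 difference −3.53, SE 0.49, adjusted p = 0.00124). Their directions were opposite, and neither overlapped. Hey1, a Notch target, was 8.01, 7.94 and 7 on the fetal arrays and 12.37, 11.83, 11.1 and 9.87 on the control arrays (log2 difference −3.64, SE 0.66, adjusted p = 0.00944). Hes1, another Notch target, was 9.21, 7.76 and 7.58 on the fetal arrays and 10.69, 10.14, 10.46 and 10.44 on the control arrays (log2 difference −2.25, SE 0.42, adjusted p = 0.0114), a call lost without fetal array 2 or 3 (adjusted p 0.0518 to 0.0549).

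Glucocorticoid and clock genes had 3 called members of 21, all lower, with a median of −0.51: Bhlhe40, Zbtb16 and Per1. Zbtb16 (PLZF), a glucocorticoid-induced zinc-finger factor, was 4, 4.55 and 4 on the fetal arrays and 8.04, 8.05, 7.36 and 7.11 on the control arrays (log2 difference −3.45, SE 0.56, adjusted p = 0.00383). Per1, a repressor of the clock, differed by −1.82 (adjusted p = 0.0155, lost without fetal array 2, adjusted p = 0.0696). Of 25 aldehyde and xenobiotic genes 3 were called higher and 2 lower. The lower ones were Aldh1a1 and the drug efflux pump Abcb1b, at 4.36, 4 and 4 on the fetal arrays and 7.31, 8.26, 6.13 and 9.12 on the control arrays (log2 difference −3.59, SE 0.65, adjusted p = 0.00855). Hmox1, Gstm5, a glutathione transferase (2.3, adjusted p = 0.0464, lost without fetal array 1, 2 or 3 or control array 1, 2 or 4, adjusted p 0.0655 to 0.134), and Adh5, which clears formaldehyde (1.34, 0.0332, lost without fetal array 1 or 3 or control array 1 or 4, adjusted p 0.075 to 0.109), were the higher ones. Against the day 7 controls neither Gstm5 (adjusted p = 0.138) nor Adh5 (0.476) was called. The count was 3 without fetal array 1 or control array 1.

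Cell division genes lay mostly above 0, but few passed the test singly. Of 68 G2/M genes 64 were above 0, where 53.7% of all genes were, the median was 1.26, 35 had an unadjusted p under 0.05 and 5 were called. List means were 8.56, 8.77 and 8.51 on the fetal arrays and 6.95 to 7.58 on the controls, with no overlap. Promoters of Aspm and Ncapg are shown because these called members hold the motifs of the cell cycle complexes. Capitals mark 2 motifs, on either strand: CCAAT is the site of NF-Y. The other, TTTGAA, is the cell cycle homology region (CHR) bound by the DREAM and MYB complexes.

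Aspm, chr1:139454523-139454772, plus strand: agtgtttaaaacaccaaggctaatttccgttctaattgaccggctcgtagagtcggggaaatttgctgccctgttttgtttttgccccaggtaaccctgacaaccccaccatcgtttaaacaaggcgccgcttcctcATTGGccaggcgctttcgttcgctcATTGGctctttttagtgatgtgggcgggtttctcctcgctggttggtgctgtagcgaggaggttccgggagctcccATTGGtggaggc

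Ncapg, chr5:45669675-45669924, plus strand: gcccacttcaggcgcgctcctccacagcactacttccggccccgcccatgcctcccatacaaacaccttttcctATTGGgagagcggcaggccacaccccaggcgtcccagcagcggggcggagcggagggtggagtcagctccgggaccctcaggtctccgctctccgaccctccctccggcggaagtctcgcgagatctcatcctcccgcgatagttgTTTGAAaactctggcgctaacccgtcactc

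Aspm holds CCAAT boxes 113, 88 and 12 bases before the start. Ncapg has 1 CCAAT box at 176 bases and 1 CHR at 30 bases. Over 62 windows of 56 G2/M genes CCAAT was in 79% against 33.8% of all promoters, and TTTGAA in 37.1% against 16%, both searched on either strand. The E2F site GGCGGGAA was in 0% of them and in 1.86% of all. The list was chosen from known G2/M genes, so these shares describe the list and not the difference between the groups.

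Plk1, the polo kinase that governs mitosis, was 9.3, 9.37 and 7.6 on the fetal arrays and 6.72, 5.32, 6.67 and 5.91 on the control arrays (log2 difference 2.6, SE 0.43, adjusted p = 0.0044) and differed from the day 7 controls by 2.59 (adjusted p = 0.00752). Aspm, a protein of the spindle poles, was 8.45, 9.08 and 10.13 on the fetal arrays and 5.28, 5.65, 4.8 and 7.05 on the control arrays (log2 difference 3.52, SE 0.73, adjusted p = 0.0201). Ncapg, a condensin subunit that compacts chromosomes, was 9.32, 9.65 and 9.76 on the fetal arrays and 4.83, 6.51, 8.2 and 5.75 on the control arrays (log2 difference 3.25, SE 0.72, adjusted p = 0.0284). Its day 7 controls stood nearer to fetal liver, at 8.97, 8.01 and 7.35, and the difference from them was 1.47 (adjusted p = 0.387). Smc2, another condensin subunit, was 9.89, 9.76 and 8.98 on the fetal arrays and 7.54, 6.65, 7.87 and 5.26 on the control arrays (log2 difference 2.71, SE 0.61, adjusted p = 0.032). Other Smc2 probe sets differed by −0.73 to 0.99 and did not pass the test (adjusted p 0.553 to 0.734 over probe sets). The other Ncapg probe set differed by 0.64 (0.762 over probe sets). With the mean of all probe sets of a gene, the calls of Ncapg and Smc2 were lost. Ttk, a kinase of the spindle checkpoint, was 6.89, 8.58 and 6.75 on the fetal arrays and 4.22, 4.07, 4.97 and 4.52 on the control arrays (log2 difference 2.96, SE 0.68, adjusted p = 0.0333). Of these 5 calls only that of Plk1 held in every fit that left out 1 array. The call of Aspm was lost without fetal array 2 or 3 or control array 1 (adjusted p 0.0504 to 0.0839). That of Ncapg was lost without fetal array 1, 2 or 3 or control array 1 or 4 (adjusted p 0.0511 to 0.0856), that of Smc2 lost without fetal array 1 or 2 or control array 2 or 4 (adjusted p 0.0555 to 0.101), and that of Ttk lost without fetal array 2 or control array 1, 2 or 4 (adjusted p 0.0613 to 0.135). The G2/M count was 12 without control array 3, 3 without control array 2 and 1 without fetal array 2.

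Of 54 G1/S and replication genes 49 were above 0, the median was 0.62 and 2 were called higher (3.7%, against 1.41% of all genes). Mcm10, which helps to start replication, differed by 2.5 (adjusted p = 0.044, lost without fetal array 1, 2 or 3 or control array 1, 3 or 4, adjusted p 0.0703 to 0.151), and Tipin, a protein of the replication fork, by 2.08 (0.044, lost without fetal array 1, 2 or 3 or control array 1 or 2, adjusted p 0.0507 to 0.135). Neither was called against the day 7 controls, at 1.99 for Mcm10 (adjusted p = 0.138) and 1.24 for Tipin (0.289). The count was 0 without fetal array 2 or 3 and 1 without any other array. The cyclin-dependent kinases of G1 moved apart: Cdk4 was 11.28, 11.1 and 11.21 on the fetal arrays and 9.61, 10.03, 9.46 and 9.74 on the control arrays (log2 difference 1.49, SE 0.26, adjusted p = 0.00789), whereas Cdk6 was lower. E2f3, which switches on S phase genes, differed by 1.12 (adjusted p = 0.0383), a call lost without fetal array 2 or 3 or control array 1 or 4 (adjusted p 0.0549 to 0.139). From the day 7 controls E2f3 differed by 0.68 (adjusted p = 0.259). Cdkn1a (p21), an inhibitor of these kinases and a p53 target, was 8.02, 6.8 and 6.85 on the fetal arrays and 10.24, 9.98, 10.53 and 10.57 on the control arrays (log2 difference −3.11, SE 0.32, adjusted p = 9.4e-05), 8.62-fold lower in fetal liver. Of 23 p53 targets 3 were called, all lower: Cdkn1a, Btg2 and Plk3, a stress kinase (−1.97, adjusted p = 0.0457, lost without fetal array 1 or 3 or control array 1, 2, 3 or 4, adjusted p 0.0621 to 0.153). The p53 count was 1 without control array 2 or 4 and 2 without fetal array 1, 2 or 3 or control array 3. Of 34 quiescence genes 15 were called, all lower, with a median of −0.9; 13 of the 15 are also on the immediate-early list, and the others are Cdkn1a and Hes1. Of 9 histone genes 2 were called higher. H2aw was 8.86, 8.67 and 8.01 on the fetal arrays and 4.25, 6.09, 4.39 and 4.37 on the control arrays (log2 difference 3.74, SE 0.53, adjusted p = 0.00155), but its day 7 controls were 8.3, 7.85 and 8.78 and fetal liver differed from them by 0.2 (adjusted p = 0.929). H1f4, a linker histone, differed by 2.34 (adjusted p = 0.0158, lost without fetal array 2, adjusted p = 0.0611).

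Heme synthesis had the largest median among metabolic lists: 15 of 16 genes were above 0, the median was 1.83 and 5 were called, all higher. Erythroid markers were also higher on all fetal arrays, as given above. Alad, which makes porphobilinogen, was 10.23, 10.51 and 10.48 on the fetal arrays and 5.82, 6.25, 7.32 and 8.47 on the control arrays (log2 difference 3.44, SE 0.69, adjusted p = 0.0171), a call lost without fetal array 2 or 3 (adjusted p 0.0528 to 0.058). Cpox, a later enzyme of the pathway, was 10.53, 10.06 and 10.31 on the fetal arrays and 6.53, 6.94, 8.38 and 7.56 on the control arrays (log2 difference 2.95, SE 0.61, adjusted p = 0.0212), a call lost without fetal array 1, 2 or 3 or control array 1 (adjusted p 0.054 to 0.0616). Fech, which inserts iron, was 10.42, 9.28 and 9.98 on the fetal arrays and 7.91, 5.91, 7.33 and 7.46 on the control arrays (log2 difference 2.75, SE 0.63, adjusted p = 0.0338), a call lost without fetal array 1, 2 or 3 or control array 2, 3 or 4 (adjusted p 0.0538 to 0.1). Abcb10, a mitochondrial transporter, differed by 1.56 (adjusted p = 0.031, lost without fetal array 1 or 2 or control array 1 or 2, adjusted p 0.0678 to 0.0965). The fifth was Hmox1, which degrades heme. The count was 1 without fetal array 2, 2 without fetal array 1 or 3 and 3 without control array 1.

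No gene of the respiratory chain, mitochondrial ribosome, proteasome or cytosolic ribosome lists passed the test, while 53.7% of all genes were above 0. Of 54 nuclear respiratory chain genes 45 were above 0, with a median of 0.47; limma called 0, 11 had an unadjusted p under 0.05, and an ordinary linear model called 0. Ndufv1, a complex I subunit, had the smallest p (1.38, adjusted p = 0.114). Of 54 mitochondrial ribosomal genes 43 were above 0, with a median of 0.51; limma called 0, 7 had an unadjusted p under 0.05 and an ordinary linear model called 0, with Mrps15 at 1.21 (0.067). Of 31 proteasome genes 28 were above 0, with a median of 0.51; limma called 0, 10 had an unadjusted p under 0.05 and an ordinary linear model called 0, with Psmb7 at 2.05 (0.0694). Cytosolic ribosomal proteins, 35 tested, had a median of 0.02, equal to that of all genes; limma called 0, 5 had an unadjusted p under 0.05 and an ordinary linear model called 0, with Rpl7 at 0.29 (0.185). Of 49 ribosome biogenesis genes Pes1, needed for the large subunit, was called higher at 8.85, 11.42 and 8.38 on the fetal arrays and 7.72, 5.28, 5.28 and 6.15 on the control arrays (log2 difference 3.44, SE 0.68, adjusted p = 0.0155), and Ddx21, a nucleolar helicase, lower (−1.26, adjusted p = 0.0251, lost without fetal array 2 or control array 3 or 4, adjusted p 0.0521 to 0.103). Pes1 differed from the day 7 controls by 1.05 (adjusted p = 0.539). Either call was 2.04% of the list, where 1.41% of all genes were called higher and 1.3% lower.

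Of 27 glycolysis and hypoxia genes 3 were called higher (11.1%, against 1.41% of all genes) and 1 lower (3.7% against 1.3%). Ero1a, an oxidase of the endoplasmic reticulum, differed by 3.67 (adjusted p = 0.0144, lost without fetal array 2, adjusted p = 0.0549) and by 1.81 from the day 7 controls (0.269). Slc16a3, the lactate exporter MCT4, was 10.16, 7.36 and 7.24 on the fetal arrays and 5.51, 5.6, 5.16 and 4.89 on the control arrays (log2 difference 2.97, SE 0.58, adjusted p = 0.0146). Egln3, an oxygen-sensing hydroxylase, differed by 2.8 (0.0316, lost without fetal array 1, 2 or 3 or control array 1, adjusted p 0.0504 to 0.0914) and by 1.6 from the day 7 controls (0.27). Hk2, a hexokinase, was the lower one (−1.88, 0.0137, lost without fetal array 2 or 3, adjusted p 0.0588 to 0.0601). The glycolysis count was 1 without fetal array 2 and 2 without fetal array 3. Of 18 TCA cycle genes Ogdh was called (1.36, adjusted p = 0.0343, lost without fetal array 2 or 3 or control array 1, 2 or 3, adjusted p 0.0569 to 0.127), though it differed from the day 7 controls by 0.01 (adjusted p = 1). The other Ogdh probe set lay in the opposite direction (−1.18, adjusted p = 0.195 over probe sets), and the call was lost with the mean of both. Insig1, which holds back cholesterol synthesis, was 8.78, 7.27 and 7.22 on the fetal arrays and 10.38, 10.16, 8.91 and 10.35 on the control arrays (log2 difference −2.2, SE 0.39, adjusted p = 0.008), the 1 called gene of 20 in that list.

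Among transcription factors of stem and myeloid cells, Cebpa was lower in fetal liver. Cebpa, which encodes C/EBPa, was 5.34, 4.92 and 6.34 on the fetal arrays and 8.1, 6.85, 6.85 and 9.06 on the control arrays (log2 difference −2.18, SE 0.51, adjusted p = 0.0384), 4.54-fold lower, without overlap. The call was lost without fetal array 1 or 2 or control array 1 or 4 (adjusted p 0.067 to 0.146), and against the day 7 controls, at 7.09, 7.14 and 8.3, the difference was −1.98 (adjusted p = 0.0823). Spi1, which encodes PU.1, was 7.89, 7.95 and 8.64 on the fetal arrays and 8.38, 8.51, 6.97 and 9.28 on the control arrays (log2 difference −0.12, SE 0.44, adjusted p = 0.951), and its sign turned when fetal array 1 (0.01) or control array 4 (0.21) was left out. Mycn, a MYC family factor of fetal and dividing cells, was 10.69, 9.67 and 9.48 on the fetal arrays and 9.19, 8.2, 8.59 and 8.99 on the control arrays (log2 difference 1.2, SE 0.41, adjusted p = 0.157) and was not called. Irf8, a factor of monocytes and dendritic cells, was 8.38, 8.17 and 8.62 on the fetal arrays and 6.44, 6.72, 7.35 and 6.15 on the control arrays (log2 difference 1.72, SE 0.41, adjusted p = 0.0415), a call lost without fetal array 1, 2 or 3 or control array 1, 2 or 4 (adjusted p 0.0694 to 0.127). Of 10 myeloid factors tested Irf8 was called higher and Cebpa and Klf4 lower, and 1 remained called without fetal array 1 or 2 or control array 1 or 4. Of 13 MYC network genes Mnt, a repressor that opposes MYC, was called (−1.49, adjusted p = 0.0332, lost without fetal array 1, 2 or 3 or control array 4, adjusted p 0.0647 to 0.0918).

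HSC identity genes were bright in both groups and mostly not called: 2 of 38 were lower, 15 were above 0 and the median was −0.25. Gata2, a zinc-finger factor that HSCs depend on, was 9.97, 9.5 and 10.14 on the fetal arrays and 11.54, 11.41, 11.45 and 11.16 on the control arrays (log2 difference −1.52, SE 0.21, adjusted p = 0.00119). Meis1, a partner of Hox proteins, was 8.61, 8.83 and 8.84 on the fetal arrays and 9.63, 9.67, 10.65 and 10.1 on the control arrays (log2 difference −1.25, SE 0.29, adjusted p = 0.0362), a call lost without fetal array 1, 2 or 3 or control array 3 or 4 (adjusted p 0.071 to 0.0959). Its other probe sets differed by −0.2 (adjusted p = 0.92 over probe sets) and −1.12 (0.683), and the call was lost with the mean of all. Meis1 was also not called against the day 7 controls (−1.12, adjusted p = 0.0833). Of 18 Hox genes and partners the lower ones were Meis1 and Hoxa10, at 6.73, 4 and 6.59 on the fetal arrays and 8.59, 7.69, 9.05 and 8.35 on the control arrays (log2 difference −2.65, SE 0.54, adjusted p = 0.0187). The HSC identity count was 1 without fetal array 2 or control array 4. Of 19 multipotent progenitor genes 2 were called higher, Irf8 and Wfdc17 (3.45, adjusted p = 0.0254, lost without fetal array 1 or 2 or control array 1, 3 or 4, adjusted p 0.0537 to 0.0876). The progenitor count was 0 without control array 1 or 4 and 1 without fetal array 1 or 3 or control array 3. Flt3, the receptor that marks multipotent progenitors, was 8.29, 9.13 and 7.95 on the fetal arrays and 5.22, 7.46, 7.69 and 5.32 on the control arrays (log2 difference 2.04, SE 0.62, adjusted p = 0.109) and was not called. Of 26 cytokine receptors Il10rb was called (1.57, adjusted p = 0.0215, lost without fetal array 2 or 3, adjusted p 0.0677 to 0.0758). This call was 3.85% of the list, where 1.41% of all genes were called higher. It was lost against the day 7 controls (adjusted p = 0.479), and the other Il10rb probe set differed by −0.09 (0.987 over probe sets). Cd34, a surface protein of progenitors, was 9.95, 9.94 and 8.81 on the fetal arrays and 8.77, 9.91, 9.57 and 7.95 on the control arrays (log2 difference 0.52, SE 0.42, adjusted p = 0.622).

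Adhesion and chromatin genes gave a few called differences, several of which other probe sets did not share. Angpt1, the ligand of the Tie2 receptor that HSCs carry, was 8.88, 8.57 and 8.81 on the fetal arrays and 10.94, 10.89, 10.61 and 11.13 on the control arrays (log2 difference −2.13, SE 0.2, adjusted p = 3.9e-05), 4.39-fold lower and without overlap. Its other probe set did not pass the test (−0.68, adjusted p = 0.512 over probe sets). Itgav, which pairs with integrin beta 3, differed by −2.66 (adjusted p = 0.023, lost without fetal array 1 or 3 or control array 1, adjusted p 0.0586 to 0.0894). Its other probe sets differed by only −0.38 to −0.03 and did not pass the test (adjusted p 0.853 or above over probe sets). With Itgb3 lower and Cdh5 higher, 4 of 29 niche genes were called, and 2 without fetal array 3. Of 31 polycomb and trithorax genes 2 were called higher (6.45%, against 1.41% of all genes) and 1 lower (3.23% against 1.3%). Kdm6b, a demethylase that removes the polycomb mark, was 9.46, 9.55 and 9.88 on the fetal arrays and 11.65, 11.74, 10.8 and 11.33 on the control arrays (log2 difference −1.75, SE 0.22, adjusted p = 0.00063). Pcgf3, a subunit of polycomb complex PRC1, differed by 2.34 (adjusted p = 0.00564) but by 0.56 from the day 7 controls (0.578). Its other probe sets did not pass the test, at 1.2 (adjusted p = 0.457 over probe sets) and 0.7 (0.517). Pcgf2, a related subunit, differed by 1.92 (0.0224, lost without fetal array 3 or control array 3 or 4, adjusted p 0.051 to 0.092) and by 0.16 from day 7 (0.929). Its other probe set lay in the opposite direction (−0.73, adjusted p = 0.378 over probe sets). Of 17 DNA methylation genes limma called 0 (5 at an unadjusted p under 0.05, and 0 by an ordinary linear model), with Mbd4, a glycosylase, at 2.02 (adjusted p = 0.0522). In all, 141 of the 455 called genes belonged to a list and 314 to none.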

How the data were processed

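The deposited values were linear intensities of 45101 probe sets on 17 Affymetrix arrays. RMA is the tool named per the submitters' processing notes, and no source used here states how the authors scaled the arrays. RNA was amplified before labelling, per the labels' protocols. Here log2 of the deposited intensity was taken with no pseudocount. The platform annotation named 34958 probe sets by 1 gene and 932 by several, with 9160 unnamed; 34754 matched a RefSeq table (GRCm38.p6). The brightest probe set on average stood for a gene.

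With limma 3.58.1 in R 4.3.3, group means were estimated from all 17 arrays together (12 residual degrees of freedom), without covariates, with Benjamini-Hochberg adjustment over 16784 genes and calls under 0.05. The fit was tested on simulated data. Members and lists were chosen with earlier results of these data known. Named were Cebpa, Spi1 and Mycn, the 12 largest called non-overlapping rises and falls with a higher group mean above the median probe set, up to 4 called members per list and direction by smallest p (or the 1 with the smallest p where none was called), the 2 genes called with the smallest p in each direction between both control days, and defining markers. Beyond this rule, Nr4a1, Nr4a2, Fosb, Jun, Junb, Klf10, Gadd45b, Ier3, Tnfaip3, Zc3h12a, Rel, Plagl1, Peg10, Ttk, Fech, Sox18, Gpr182, Flt4 and Epb42 were chosen after their values were seen. Alternatives were other scalings, pseudocounts, probe set rules, filters, covariates and controls, a block on replicate number and leaving out each array. Over all genes, deviations from the group mean were nearly uncorrelated between fetal and control arrays of the same number (correlations −0.0047, −0.0089 and −0.0303). The main fit paired no arrays. Such a correlation does not show whether some of the genes follow the replicate number, and the fit with that block is given below. Arrays give no count depth; their number limits the precision.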

Additional observations from a re-analysis of the deposited data

Results flagged for a closer look

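In 154 checks of a group of 4 control arrays at day 21, 11 found 1 array far from the other 3. For 4 of the 11 (Mrc1, Bmp2, Dlk1 and Rhag) the other 3 arrays were all at the floor, so any gap meets the criterion, and that of Rhag was small. The remaining 7 compare with about 1 in 20 by chance. On the log2 scale the high ones were Mrc1 at 4.43, Bmp2 at 4.147, H2aw at 6.092, Wfdc17 at 6.506 and Clec4g at 5.21, all on control array 2. Dlk1 at 5.316 and Camp at 9.04 were high on control array 4, and Rhag at 4.034 was high on control array 3. The low ones were Insig1 at 8.914 and Procr at 8.788 on control array 3 and Mpo at 4.873 on control array 1.

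For 3 genes named by the rule the difference from fetal liver depended on which control was used, by limma's test of day 21 minus day 7. Eif2s3y, a Y-linked gene, was lower at day 21 by −4.72 (adjusted p = 7.8e-07) and at the floor on all 3 fetal arrays. The difference was −3.53 for H2aw (adjusted p = 0.0435) and −3.61 for 4833407H14Rik (adjusted p = 0.0278). Neither gene was called between fetal liver and the day 7 controls, by 0.2 for H2aw (adjusted p = 0.929) and −0.97 for 4833407H14Rik (adjusted p = 0.388), whose groups overlap.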

How the results depend on the processing

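The count of 455 genes called changed by more than 1.5 times under 5 of 18 settings: 74 with only the 7 arrays, 789 of 31706 probe sets when each was tested, 269 with array weights, 267 with the 3' to 5' control ratio as a covariate and 242 with the replicate block and the share at the floor. The replicate block alone gave 355 genes (174 higher, 181 lower), of which 307 were among the 455. Leaving out 1 array gave 308 to 516, with the lowest count without fetal array 2 and the highest without fetal array 1. Centring gave 445 and quantile normalization 417. Of the 123 called genes named by the rule, 27 kept their call with only the 7 arrays and 73 with the ratio covariate. The call was kept by 95 with the block, by 103 with the mean of all probe sets of a gene and by 85 against control day 7.

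Directions turned for 6 genes named by the rule, of which only 4833407H14Rik was called. It stood at −0.97 against day 7. Mecom was −0.060 by the mean of probe sets and −0.16 against day 7, and Hlf was 0.094 by that mean and 0.17 with the ratio covariate. When 1 array was left out, Spi1 ran from −0.56 to 0.21, Procr from −0.45 to 0.021 and Alas2 from −0.050 to 0.703. Causes were not tested. Genes at the floor have only bounds, and 3 against 4 arrays limit what small differences can show.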
